A study of Mus musculus with 14 samples.

Results

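The genes described here are the sugar transporters of the SGLT and GLUT families in mouse liver. The list named 10 genes, 4 SGLT genes (Slc5a1, Slc5a2, Slc5a9 and Slc5a10) and 6 GLUT genes (Slc2a1, Slc2a2, Slc2a4, Slc2a5, Slc2a8 and Slc2a9). A gene was counted as measured where the array's annotation gave a probe set with its symbol and no other, and where there were several, the brightest on average over the 14 arrays stood for it. By this rule 9 of the 10 genes were measured, among 22180 genes in all. Slc5a10 had 1 probe set, which is annotated to Fam83g as well, so no value is given for it.

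SGLT proteins carry glucose into a cell against its gradient by coupling it to sodium, and are known above all from the kidney tubule and the intestine. GLUT proteins let hexoses pass down their gradient in either direction. In the hepatocyte GLUT2, encoded by Slc2a2, carries glucose in after a meal and out during fasting. Canagliflozin inhibits SGLT2, the product of Slc5a2, in the kidney and so causes glucose to be lost in urine.

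Hepatic total RNA of male C57Bl/6J mice was hybridised to Affymetrix whole-transcript arrays. Mice aged 6 weeks were put on a diet with 60% fat (HFD), and after 4 weeks of it a study period of 4 more weeks began. HFD controls stayed on that diet (n = 4 arrays), the canagliflozin group received the drug with it (n = 5, 30 mg/kg in the sample labels and 25 to 30 mg/kg in the protocol), and the caloric restriction group ate 15 to 30% less to match the weight of the drug group (n = 5). Where values are given by replicate below they follow the replicate numbers of the labels. The labels count mice per group but do not say array by array that each came from a different mouse, so the p-values measure the spread between these samples.

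Values are log2 signals normalized by the authors with RMA, and a difference of 1 is 2-fold. The arrays were alike in scale, with medians from 4.07 to 4.13, lower quartiles from 2.99 to 3.06 and upper quartiles from 5.77 to 5.82 over all probe sets. All 8 hepatocyte markers measured, among them Alb (mean 14.01) and Ttr, lay above the upper quartiles. In whole liver, fewer cells of a type and less RNA per cell cannot be told apart.

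Slc2a2 had by far the brightest signal of the 9 genes. The 3 measured SGLT genes and the GLUT gene Slc2a4 were above the upper quartile of the array on 0 of 14 arrays. Signals of different genes come from different probes, so their position on the array is a description and does not rank amounts of transcript. Slc2a2 averaged 11.50 ± 0.18 (SD over 14 arrays) and 99.4% of genes had a lower mean. Slc2a1, Slc2a8 and Slc2a9 averaged 6.84, 6.76 and 6.72, above the upper quartile of the array on 14 of 14 arrays. Slc2a5 averaged 6.24 and was above it on 12 of 14. Slc2a4 (4.05) lay around the array median, under it on 6 arrays. These positions are over all probe sets. Over the genes alone, Slc2a5 was above the upper quartile on 5 of 14 arrays and Slc2a9 on 13. Slc2a4 was under the median over the genes alone on 14 of 14.

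**Figure D1:**
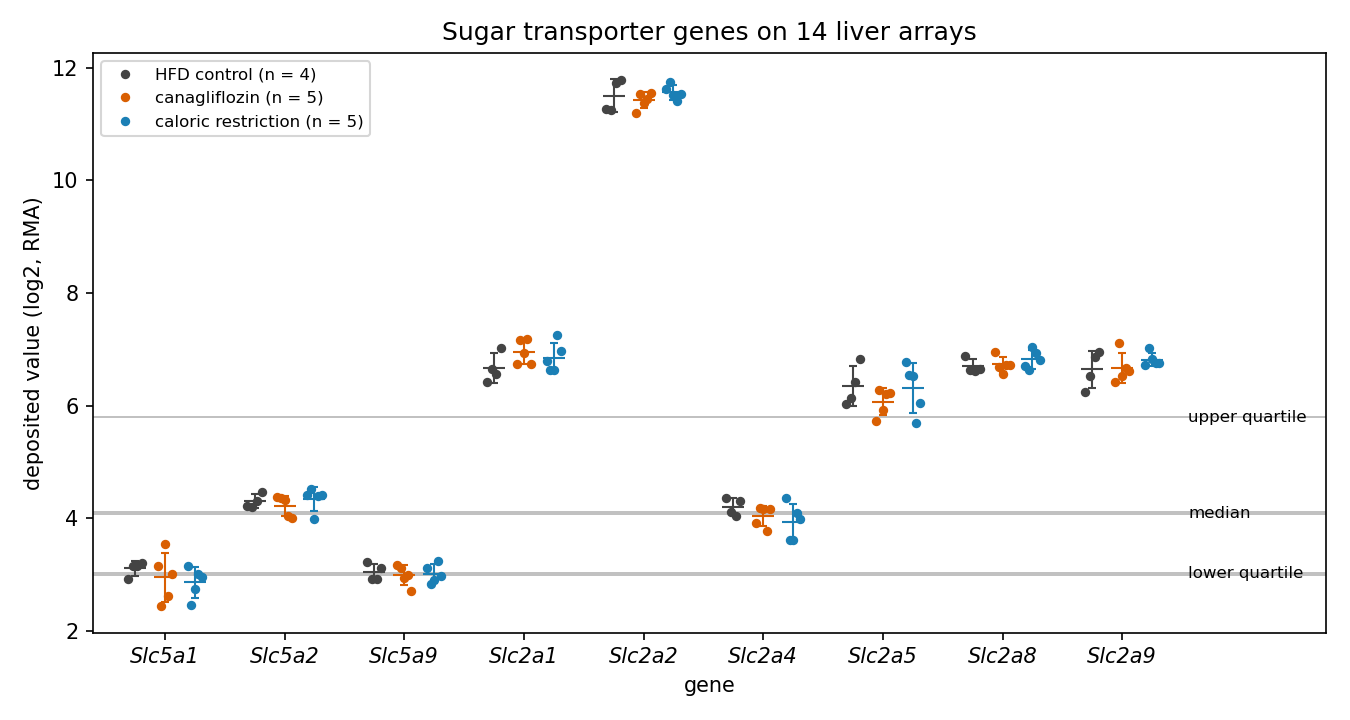
Deposited log2 values (vertical axis) of the 9 measured genes on each array, in HFD control (n = 4), canagliflozin (n = 5) and caloric restriction (n = 5). Points are arrays, dashes with bars are group means ± SD, and grey bands span the lower quartile, median and upper quartile of the 14 arrays. Slc2a2 lies near 11.50, Slc5a1 and Slc5a9 lie near the lower quartile, and the 3 groups overlap for each of the 9 genes.

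Of the SGLT genes, Slc5a1 (SGLT1, the glucose and galactose carrier of the intestine) averaged 2.97 and Slc5a9 (SGLT4) 3.02, under the array median on 14 of 14 arrays each and under the lower quartile on 7 and 8 arrays. Against the lower quartile over the genes alone, they were under it on 13 and 14 arrays. Slc5a2 averaged 4.29, above the median over all probe sets on 11 of 14 arrays, although under the median over the genes alone on 13 of 14. These levels are within the range of genes that mark other organs. The 9 kidney genes measured, which include Slc34a1 and Umod, had means from 2.81 (Slc12a1) to 4.53 (Slc22a6), and 0 of 9 lay above the upper quartile. Genes of testis, retina and brain gave means from 2.64 (Neurod6) to 5.57 (Gnat1) for 8 of 9 genes, the other being the probe set annotated to Odf1 at 12.11. Whether that probe set measures Odf1 was not tested. A cut between presence and absence of a transcript cannot be drawn from these values, since signal over background was not analysed here.

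**Figure D2:**
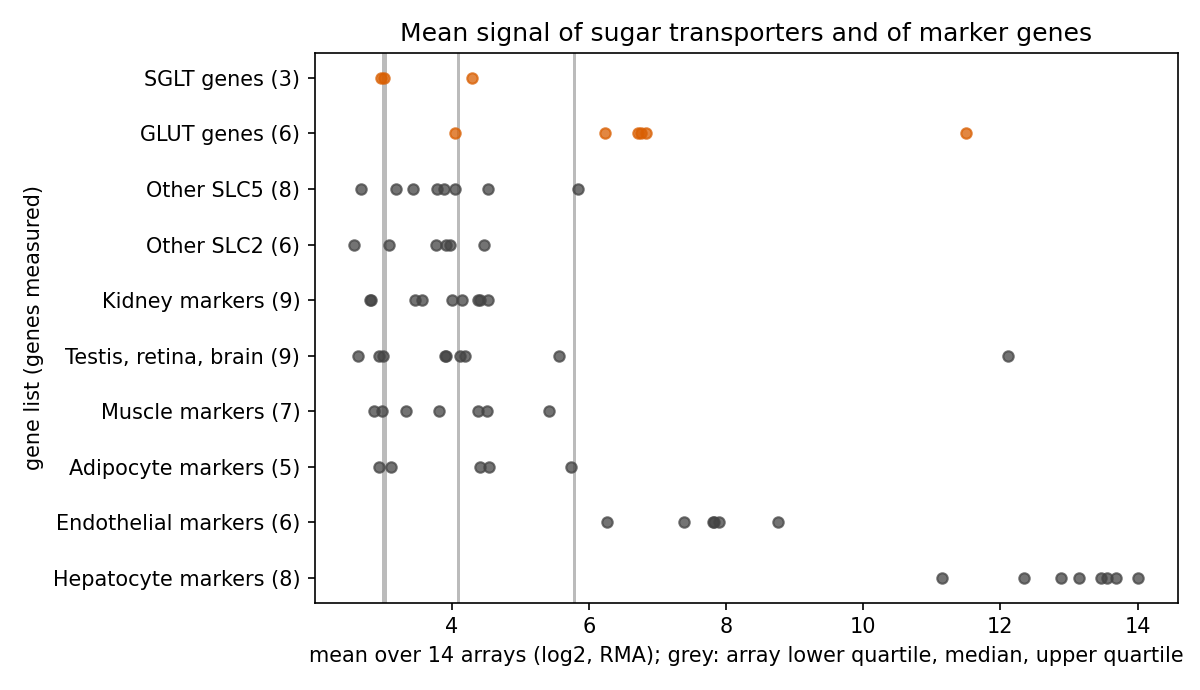
Mean log2 signal over 14 arrays (horizontal axis) of the SGLT and GLUT genes (orange), of the other SLC5 and SLC2 genes and of marker lists (dark points, 1 per gene). Grey lines are the lower quartiles, medians and upper quartiles of the arrays; the 3 SGLT genes overlap the kidney markers (2.81 to 4.53), while Slc2a2 lies among the hepatocyte markers (11.14 to 14.01).

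Slc5a2, the gene of the drug's target, was similar in the 3 groups. HFD control replicates 1 to 4 measured 4.22, 4.20, 4.31 and 4.47. Canagliflozin replicates 1 to 5 measured 4.39, 4.35, 4.33, 4.04 and 4.01, and caloric restriction replicates 4.41, 4.52, 3.99, 4.41 and 4.42. The groups overlapped, with 2 of 5 drug-treated arrays below all controls and 0 above them. The log2 fold change under the drug was -0.08 ± 0.12 (SE), with a 95% confidence interval from -0.33 to 0.17 (limma adjusted p = 0.952). It was 0.05 ± 0.12 under restriction.

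Slc5a1 varied more. It measured 2.93, 3.15, 3.16 and 3.21 in controls, 3.16, 2.44, 3.54, 2.62 and 3.01 under canagliflozin and 3.15, 2.46, 2.74, 3.02 and 2.96 under restriction. The 3.54 of canagliflozin replicate 3 was the highest and the 2.44 of replicate 2 the lowest of all 14 values, both in the drug group. The SD within groups was 0.32, larger than for 93.5% of genes (the median gene had 0.18). The differences from control were -0.16 ± 0.18 under the drug and -0.25 ± 0.18 under restriction (limma adjusted p = 0.932 and 0.999). Slc5a9 ranged from 2.72 to 3.25 over the arrays, with differences of -0.06 ± 0.11 and -0.03 ± 0.11.

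Slc2a2 was as bright in treated as in control livers. Controls measured 11.26, 11.26, 11.73 and 11.79, the drug group 11.20, 11.54, 11.38, 11.45 and 11.55, and the restricted group 11.63, 11.74, 11.51, 11.41 and 11.53. The controls split into a lower and a higher pair that enclosed all 5 restricted arrays and 4 of 5 drug-treated ones. By group mean the order was restriction (11.56 ± 0.13, SD), control (11.51 ± 0.29) and canagliflozin (11.43 ± 0.14), and neighbours in this order differed by less than their spread. The drug differed from control by -0.08 ± 0.12 (SE; limma adjusted p = 0.949), and the 95% confidence interval of the fold ran from 0.789 to 1.13. For restriction it ran from 0.867 to 1.24, and for the drug against restriction from 0.767 to 1.08.

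Slc2a1 (GLUT1, the basal glucose transporter of red cells, endothelium and many other cells) had the largest difference from control of the 9 genes under the drug. It measured 6.42, 6.65, 6.56 and 7.03 in controls, 6.74, 7.17, 6.93, 7.19 and 6.75 under canagliflozin and 6.79, 6.63, 6.63, 7.26 and 6.97 under restriction. All 5 drug-treated arrays lay above 3 of the 4 controls, but only replicates 2 and 4 lay above HFD control replicate 4. The log2 fold change was 0.29 ± 0.15 (1.22-fold, 95% confidence interval from -0.03 to 0.60, limma adjusted p = 0.792). It was 0.19 ± 0.15 under restriction, and 0.10 ± 0.14 between the drug and restriction. The gene's other probe set, dimmer at 3.96, differed by -0.14 under the drug, the opposite sign, and by 0.03 under restriction. The mean of both probe sets differed by 0.07 under the drug. The 6 endothelial markers had a median difference of -0.02 under the drug, 2 higher and 4 lower, from -0.17 (Clec4g) to 0.35 (Lyve1). Of 6 erythroid markers only 1 was measured, Slc4a1, with a mean of 3.72. It differed by 0.14 ± 0.15 under the drug and by 0.15 ± 0.15 under restriction. The part of endothelial and red cells in the values of Slc2a1 was not tested.

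Slc2a5 (GLUT5, the fructose transporter of the intestine) was the most variable GLUT gene, with an SD within groups of 0.35, larger than for 96.1% of genes. It measured 6.03, 6.13, 6.42 and 6.82 in controls, 5.72, 6.28, 5.92, 6.22 and 6.23 under canagliflozin and 6.77, 6.55, 6.53, 5.69 and 6.04 under restriction. Drug-treated arrays sat in the lower part of the range, with 2 of 5 below all controls and 0 above. The log2 fold change under the drug was -0.28 ± 0.20 against control (limma adjusted p = 0.864) and -0.24 ± 0.19 against restriction, with intervals reaching down to -0.70 and -0.64. Single arrays moved both values. The first was -0.12 without HFD control replicate 4 and -0.39 without HFD control replicate 1. The second was -0.13 without caloric restriction replicate 1, -0.15 without canagliflozin replicate 1 and -0.40 without caloric restriction replicate 4. Of the 7 enterocyte markers, Sis, Vil1, Lct, Cdx2 and Cdx1 had means from 2.93 (Sis) to 4.29 (Cdx1). Apoa4 and Fabp2, which the liver also expresses, were bright (means 11.17 and 9.47). The part of such cells in the values of Slc2a5 was not tested.

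Slc2a9 (GLUT9, which carries urate and brings it into hepatocytes for breakdown) measured 6.24, 6.53, 6.87 and 6.96 in controls, 6.42, 7.11, 6.53, 6.67 and 6.62 under the drug and 6.73, 7.03, 6.82, 6.76 and 6.77 under restriction. The drug differed from control by 0.02 ± 0.15 and from restriction by -0.15 ± 0.14, 4 of 5 drug-treated arrays lying below every restricted one and replicate 2 above every one. Slc2a8 (GLUT8, an intracellular hexose transporter) had the smallest spread, an SD within groups of 0.15, and differed by 0.03 ± 0.11 under the drug and 0.12 ± 0.11 under restriction. Slc2a4 (GLUT4, the insulin-responsive transporter of muscle and fat) measured 4.21 ± 0.15 (SD) in controls, 4.04 ± 0.18 under the drug and 3.94 ± 0.32 under restriction. The largest of its differences was the -0.27 ± 0.14 under restriction, where 3 of 5 arrays lay below all controls and 1 was level with the highest control (limma adjusted p = 0.999). Adipocyte markers had means from 2.94 (Lep) to 5.74 (Cidec), with 2 of 5 under the array median, and muscle markers from 2.87 (Myh1) to 5.42 (Acta1), with 4 of 7 under it. The part of these cells in the values of Slc2a4 was not tested.

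Across the comparisons no sugar transporter passed the test. Under canagliflozin against control 0 of 9 had an adjusted p under 0.05 in limma, as had 0 of all 22180 genes (0% called), and 0 of 9 had an unadjusted p under 0.05, against 6.51% of all genes. For caloric restriction against control the members' counts were again 0 and 0 of 9, against 0% and 3.93% of all genes. For the drug against restriction they were 0 and 0 of 9, against 0.00451% (1 gene, Rtkn) and 6.05%. In exact permutation tests of single genes, two-sided, the 27 unadjusted p-values ran from 0.127 to 0.968. The smallest these tests can give is 0.0159 against controls and 0.00794 between the treated groups. No member's groups stood apart without overlap in any comparison, which 1.95%, 1.4% and 0.929% of all genes did in the same order.

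The median absolute difference of the members was close to that of all genes for the drug against each other group, and larger for restriction against control. Under the drug 3 members had higher and 6 lower means than control, with a median log2 fold change of -0.08 against -0.0008 over all genes. The median absolute difference was 0.08 for the members and 0.09 for all genes. For restriction 5 were higher and 4 lower, with a median absolute difference of 0.12 against 0.08. For the drug against restriction 3 were higher and 6 lower, and the medians were 0.10 and 0.09. All 27 confidence intervals included 0, and 23 of 27 lay within a 1.5-fold change in either direction. The 4 others belong to Slc5a1 under restriction, Slc2a1 under the drug, and Slc2a5 under the drug against each of the other groups.

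**Figure D3:**
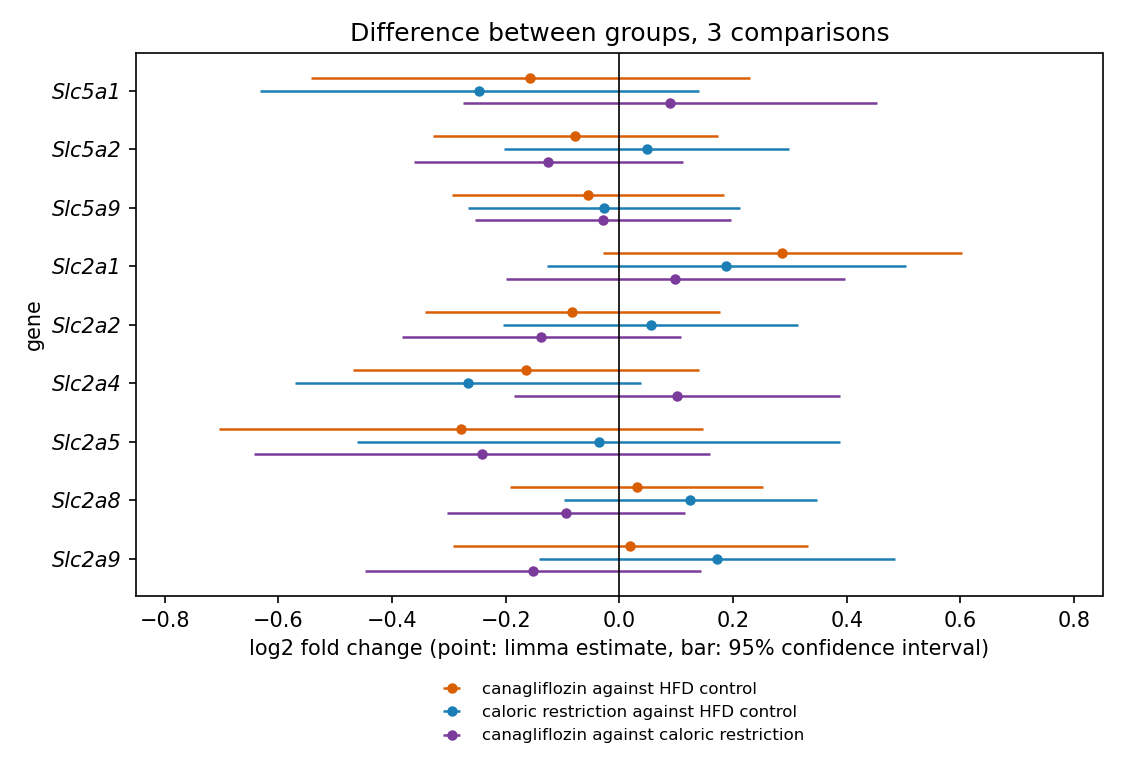
Log2 fold change (horizontal axis) of the 9 genes in the 3 comparisons, as the limma estimate (point) with its 95% confidence interval (bar). All 27 intervals include 0, and the estimates run from -0.28 (Slc2a5) to 0.29 (Slc2a1), both for canagliflozin against control.

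Over the arrays 3 of the brighter GLUT genes varied together, also within groups. Slc2a2 correlated with Slc2a9 (Pearson r = 0.80, Spearman rho = 0.78) and with Slc2a5 (r = 0.80, rho = 0.84) over 14 arrays, and Slc2a5 with Slc2a9 less closely (r = 0.57, rho = 0.66). With group means removed the values of r were 0.81, 0.79 and 0.60. In controls the pattern is plain from the values, since replicates 3 and 4 exceeded replicates 1 and 2 in all 3 genes. Of 17269 other named genes, 16 had an r with Slc2a2 at least as high as that of Slc2a9, which is 0.0927%, and 19 at least as high as that of Slc2a5. Slc2a9 itself is counted among the 16, and both Slc2a9 and Slc2a5 among the 19. Slc2a8 ran the other way against Slc2a2 (r = -0.42) and Slc2a1 hardly varied with it (r = 0.09). The points share their arrays and the normalization, and with the position of the array in the deposited order r was 0.50 for Slc2a2, 0.38 for Slc2a9 and 0.13 for Slc2a5. The part of that order in these correlations was not tested.

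**Figure D4:**
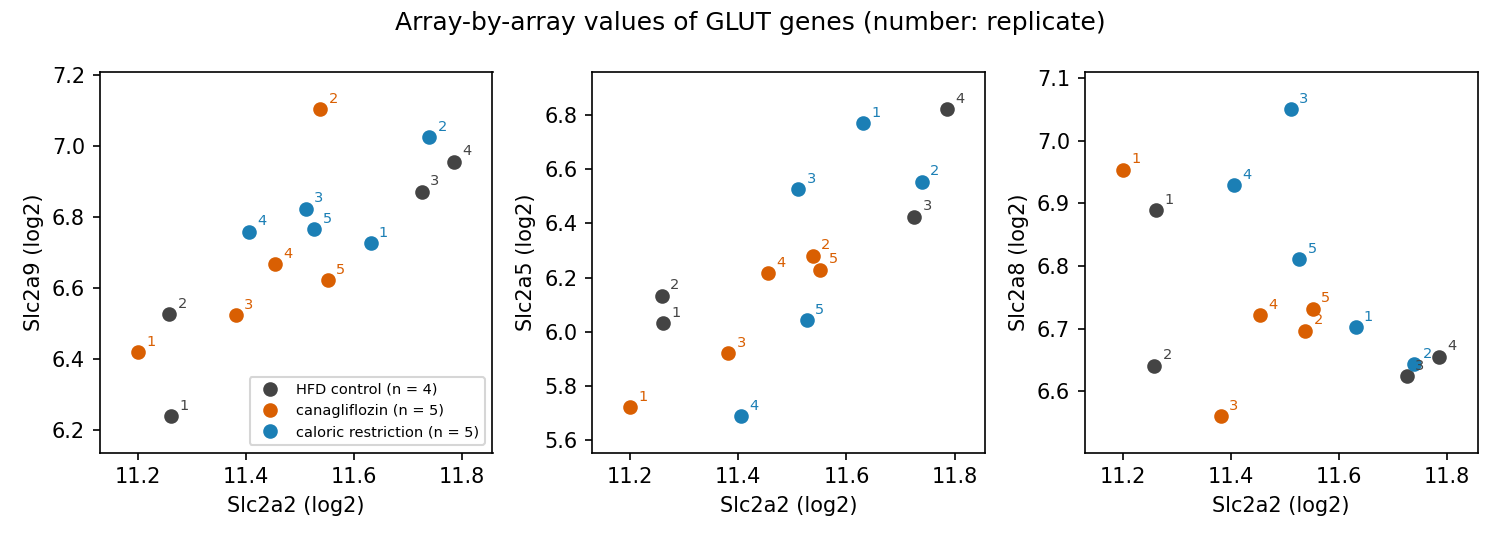
Log2 values of Slc2a2 (horizontal axes) against Slc2a9, Slc2a5 and Slc2a8 (vertical axes, left to right) on 14 arrays, coloured by group and numbered by replicate. Slc2a9 (r = 0.80) and Slc2a5 (r = 0.80) were high where Slc2a2 was high, and Slc2a8 tended the other way (r = -0.42).

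The sequences upstream of Slc2a2 and Slc2a5 are shown because the signals of these genes varied together. Each line holds the 250 bases before an annotated gene start, 5′ to 3′ on the gene's strand, from RefSeq (GRCm38.p6), in lower case with a GC box in capitals. For 5 of the 10 genes the RefSeq table held a window that adjoins the start of the gene's annotated span; Slc2a9 was not among them. The lines are from chr3:28697653-28697902, plus strand (Slc2a2) and chr4:150119094-150119343, plus strand (Slc2a5).
Slc2a2: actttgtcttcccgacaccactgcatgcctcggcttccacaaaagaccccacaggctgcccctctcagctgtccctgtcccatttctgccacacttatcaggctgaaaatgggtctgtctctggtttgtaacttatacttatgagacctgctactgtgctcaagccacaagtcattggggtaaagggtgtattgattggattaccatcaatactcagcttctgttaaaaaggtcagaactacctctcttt
Slc2a5: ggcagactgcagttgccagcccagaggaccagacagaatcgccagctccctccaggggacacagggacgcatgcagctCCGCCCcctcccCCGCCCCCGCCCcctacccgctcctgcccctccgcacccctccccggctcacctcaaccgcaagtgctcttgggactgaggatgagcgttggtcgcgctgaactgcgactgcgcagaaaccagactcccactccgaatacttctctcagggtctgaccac
These windows were searched on both strands for the HNF1 half-site GTTAAT, the FOXA core TGTTTAC, the E-box CACGTG and the GC box GGGCGG. None of the 4 occurred in the Slc2a2 window, and only the GC box in that of Slc2a5. Among the 32851 windows of the same length in the RefSeq table, the shares that held them were 6.43%, 3.17%, 6.02% and 32.7% in the same order. In the windows of the 3 other members the GC box was found for Slc2a1 and the E-box for Slc5a1.

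By likeness of pattern over the 14 arrays, the gene nearest to Slc2a9 was Aqp9, the glycerol channel of hepatocytes (r = 0.92, and 0.95 with group means removed), before Cd160 (0.90) and Fam169b (0.90). Nearest to Slc2a2 were Mpzl2 (0.89), Xpo6 (0.86) and Plpp3 (0.85), and nearest to Slc2a5 were Fzd4, Tubb6 and Plch2 (each 0.85). Slc2a1 was most like Irf2bp2 (0.87), Asb12 (0.86) and Nrip1 (0.85), and Slc2a8 like Ryr1 (0.84), Gsc2 (0.82) and Mcpt1 (0.81). Of these Asb12, Cd160, Mcpt1 and Plch2 had means under the array median (2.48, 3.11, 2.90 and 3.54). These are the highest of 17269 values for each gene and carry no test.

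The other members of both families were mostly dim. Of 9 further SLC5 genes 8 were measured, and 6 of these had means under the array median. Slc5a6, a carrier of vitamins, was the brightest (5.84) and differed by -0.09 ± 0.13 under the drug. Slc5a7, the choline transporter of neurons (3.18), differed by 0.26 ± 0.10 between the drug and restriction (limma adjusted p = 0.801). All 6 further SLC2 genes were measured, with means from 2.58 (Slc2a12) to 4.47 (Slc2a10). Slc2a6 had a lower mean than control in both treated groups, by -0.32 ± 0.13 and -0.35 ± 0.13 (limma adjusted p = 0.726 and 0.999), and these comparisons share their controls. It measured 4.22 ± 0.33 (SD) in controls, 3.90 ± 0.15 under the drug and 3.87 ± 0.11 under restriction. No gene of either list passed in any comparison.

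Genes that handle the sugars after entry were taken from 3 lists, of which none held a gene that passed. Of 8 measured genes of hexose phosphorylation and glucose release 2 were higher and 6 lower under the drug than in controls. G6pc, which frees glucose for export through GLUT2, differed by 0.56 ± 0.15 (limma adjusted p = 0.559), Gckr, the regulator of glucokinase, by -0.19 ± 0.13, and the hexokinase gene Hk2 by -0.03 ± 0.13. Against restriction these values were 0.34, -0.21 and 0.23. All 3 measured genes of fructose and galactose entry had lower means under the drug, by a median of -0.17, including Khk, the ketohexokinase (-0.36 ± 0.17, and -0.40 ± 0.16 against restriction), and Galm, the galactose mutarotase (-0.17 ± 0.12 and -0.19 ± 0.11). Of 6 carbohydrate-response genes 4 were lower under the drug than in controls and 5 lower than under restriction. Pklr, the liver pyruvate kinase, differed by -0.58 ± 0.20 and -0.82 ± 0.19 (limma adjusted p = 0.612 and 0.487), Mlxipl, which encodes the carbohydrate sensor ChREBP, by -0.32 ± 0.15 and -0.23 ± 0.14, and Txnip, an inhibitor of glucose uptake, by 0.53 ± 0.31 and 0.64 ± 0.29. Among the alternative fits, Pklr passed only against restriction without canagliflozin replicate 3. Its log2 fold change there was -0.97, with a limma adjusted p of 0.0499. That fit called 16 of all genes.

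Among 7 measured liver regulators of Slc2a2, 5 had lower means under the drug than in controls, with a median of -0.34, and 4 had an unadjusted p under 0.05 against 6.51% of all genes. None passed the adjusted threshold. Foxa1 and Foxa2, pioneer factors of the liver, differed by -0.38 ± 0.12 and -0.34 ± 0.13 (limma adjusted p = 0.607 and 0.708), and by -0.38 and -0.34 against restriction. The other 2 were Foxa3 (-0.31 ± 0.14) and Srebf1 (-0.62 ± 0.24), named here after their values were seen, while Hnf4a differed by 0.05 ± 0.11. Srebf1 ran from 7.21 to 8.95 under the drug and from 8.39 to 8.78 in controls. Under restriction 3 were higher and 4 lower than in controls. Over the 14 arrays Slc2a2 correlated little with these 7 genes, r running from -0.04 (Onecut1) to 0.30 (Hnf4a). For Foxa1 r was 0.01, and -0.33 with group means removed.

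The remaining lists held partners of single transporters. Of 11 urate genes beside Slc2a9, 5 were higher and 6 lower under the drug than in controls, Uox, which breaks urate down, by 0.05 ± 0.10, the phosphate and urate carrier Slc17a3 by -0.32 ± 0.12 (limma adjusted p = 0.677) and Slc17a1 by 0.28 ± 0.16. Of 9 genes of GLUT4 traffic 4 were higher and 5 lower, among them Stxbp3 by 0.14 ± 0.08 and the syntaxin Stx4a by 0.13 ± 0.11. Against restriction Stx4a differed by 0.38 ± 0.11 (limma adjusted p = 0.683) and Aspscr1, which holds GLUT4 vesicles back, by -0.19 ± 0.10. Of 3 SGLT partners and regulators 2 had lower means under the drug, Pdzk1ip1 (MAP17, an activator of SGLT2) by -0.20 ± 0.14 and the scaffold Slc9a3r1 by -0.21 ± 0.10. With all 14 arrays none of these genes passed the adjusted threshold in any of the 3 comparisons.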

How the data were processed

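Total RNA (250 ng) from liver was labelled by the WT Plus protocol, per the labels' protocols. Each probe set has a log2 value deposited by the authors, and the submitters' processing notes name RMA and the Affymetrix Expression Console. RMA makes array distributions equal, which hides a global difference in RNA. Software versions and the genome build were not given in the sources used here. An array has no read depth, so precision rests on how many arrays there are.

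The platform annotation gave 1 symbol to 23521 of 41345 probe sets, 1814 had several and 16010 none here; 23328 matched a RefSeq gene identifier, with 0 other symbols. For each of 22180 genes the probe set with the highest mean was kept, without a filter. One limma model (version 3.58.1, under R 4.3.3) with a mean per group covered the 14 arrays, with Benjamini-Hochberg adjustment over all genes and a threshold of 0.05. The fit was also run on simulated data, and the outcome of that run is not given here.

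Members, lists, comparisons and alternatives were chosen with earlier results of these data known. All members were named. Other SLC5 and SLC2 genes were named for an unadjusted p under 0.05 or a mean above the upper quartiles of the arrays, and of each other list the 2 genes with the smallest p for the drug against each other group. Likeness named the 3 genes of highest r per bright member. Olfactory, vomeronasal and taste receptors, small RNAs and gene models without a name were left out of it. Alternatives were a fit of 2 groups, a filter at a mean of 5, median centring, cyclic loess, trended robust variance, the mean of probe sets, the replicate block, deposited order, exact permutation and leaving out each array. Same-numbered arrays of different groups deviated together with r over 0.1 in 3 of 13 pairs, and differently numbered arrays in 8 of 52. The median r was 0.05 and -0.0188. These values do not settle whether the numbers are pairs. The numbers were not taken as pairs in the main fit, and the replicate block was run as an alternative.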

Additional observations from a re-analysis of the deposited data

Results flagged for a closer look

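In 2 of 27 groups of values (9 genes in 3 groups), 1 array lay apart from the others of its group by Dixon's criterion, which chance alone meets in about 1 of 20 groups. Slc5a2 measured 3.99 in caloric restriction replicate 3, where the other 4 arrays lay between 4.41 and 4.52. Slc2a8 measured 6.89 in HFD control replicate 1, where the other 3 lay between 6.62 and 6.66.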

How the results depend on the processing

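No sugar transporter was called in any comparison under any alternative that was run. The count of members with an unadjusted limma p under 0.05, 0 of 9 in the main fit, was 1 in some alternatives. For the drug against control these were the replicate block, the deposited order, and leaving out canagliflozin replicate 1 or 5 or HFD control replicate 4. For restriction it was 1 without caloric restriction replicate 1, and for the drug against restriction without caloric restriction replicate 4. Of 231 differences under settings other than leaving out an array, 229 kept their sign, and of 252 with 1 array left out, 233 did. Many of the 231 could not change sign. The fit of 2 groups, the filter, the trended robust variance and exact permutation all keep the main difference of group means. The mean of probe sets could change only Slc2a1, the 1 member with several probe sets. The exceptions among the 231 were small. Slc5a9 under restriction was 0.0126 with the replicate block. Slc2a1 for the drug against restriction was -0.0349 with the mean of probe sets. Leaving out 1 array gave ranges across 0 for Slc5a1 (-0.0581 to 0.22) and Slc5a9 (-0.0764 to 0.0395) between drug and restriction. Under the drug against control these were -0.10 to 0.013 for Slc5a9, -0.17 to 0.01 for Slc2a2, -0.0244 to 0.0931 for Slc2a8 and -0.12 to 0.12 for Slc2a9, and under restriction -0.0838 to 0.0325 for Slc5a9, -0.0285 to 0.15 for Slc2a2 and -0.15 to 0.12 for Slc2a5. The count of all genes called for the drug against control, 0, was 1 at a mean of at least 5 (Carmil1) and 1 with the deposited order (Olfr331), and 0 to 12 with 1 array left out (12 without canagliflozin replicate 3 and 1, Acot9, without canagliflozin replicate 5). For restriction it was 1 with the deposited order (Olfr331) and 0 with each array left out. For the drug against restriction, 1, it was 0 in a fit of the 2 groups alone, 2 with the replicate block (Angptl8 and Ppp1r3c) and 0 to 16 with 1 array left out (16 without canagliflozin replicate 3, 2 without canagliflozin replicate 2, 1 without caloric restriction replicate 5 and 0 without any other). The cause was not tested. Measured from the median over genes, the mean heights were -1.52 (Slc5a1), -0.20 (Slc5a2, from 0.20 over all probe sets), -1.47 (Slc5a9), 2.35 (Slc2a1), 7.01 (Slc2a2), -0.44 (Slc2a4), 1.75 (Slc2a5), 2.27 (Slc2a8) and 2.23 (Slc2a9), and 1.30 for Slc2a1 with the mean of its probe sets.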
